A study of Mus musculus with 10 samples.

Results

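The 9 genes described here, Dlx1, Dlx2, Dlx5, Dlx6, Gad1, Gad2, Lhx6, Sp8 and Sp9, are those known for the making of GABAergic interneurons in the forebrain, and they were taken by name from a table of 21101 genes. All 9 were in the table, and 6 of them (Dlx1, Dlx2, Dlx5, Dlx6, Gad1 and Sp9) had at least 1 TPM (a level scaled by gene length and by library total) in at least 2 libraries and could be tested among 15660 genes. The cells were mouse neural stem cells that lack p53 and carry introduced IDH1(R132H), a mutant metabolic enzyme found in gliomas, and these features were shared by every group. RNA from 3 Atrx-deleted lines (mA16d#4, mA19d#4 and mA19d#7) and 2 control lines (Control NSC#1 and Control NSC#2) was sequenced after 8 days in differentiation medium, which is neural basal medium with B27 and no growth factors, and in proliferation medium with 20 ng/ml EGF and bFGF. Each line gave 1 library in each medium, so the groups were 3 Atrx-deleted and 2 control differentiation libraries, and 3 Atrx-deleted and 2 control proliferation libraries. Atrx is a chromatin remodeller, and the series title names its role in neuronal differentiation as the question. How Atrx was deleted, and whether the lines came from separate animals, is not stated in the labels, so p-values measure the spread between these lines only.

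GABAergic interneurons arise in the ventral forebrain, where the Gsx genes act before the Dlx genes. Dlx1, Dlx2, Dlx5 and Dlx6 encode homeodomain transcription factors, Lhx6 acts in interneurons of the medial ganglionic eminence, and the zinc-finger factors Sp8 and Sp9 act in those of the lateral and caudal eminences. Gad1 and Gad2 encode the enzymes that make GABA from glutamate, the output of the finished neuron, and Slc32a1 loads GABA into vesicles.

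The libraries were checked first. Atrx averaged 51.9 ± 4.05 TPM in Atrx-deleted and 127 ± 0.623 TPM in control differentiation libraries (SD, n = 3 and 2; adjusted p = 0.0204, limma), and 62.8 ± 17.4 TPM in Atrx-deleted and 156 ± 9.61 TPM in control proliferation libraries (n = 3 and 2; adjusted p = 0.039, limma). Sox2, a neural stem cell factor, stood at 364 to 705 TPM in the 10 libraries. The differentiation library of mA19d#7 stood apart. Its Spearman correlation over the tested genes was 0.957 with the mA16d#4 proliferation library and 0.926 with its own line's proliferation library. It had 1410 TPM of the astrocyte gene Gfap, against 1.57 to 79.5 TPM in the other libraries. Whether its line label is right was not tested. The label was kept, and the values of mA19d#7 between media rest on it. The differences of Gad1 and of Sp9 between genotypes in differentiation medium, the response of Gad1 and the correlations of Gad1 with the factors are given with and without it.

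Most of the programme was scarce. Dlx1, Gad1 and Sp9 were at 1 TPM or more in all 10 libraries, with medians of 3.04, 7.89 and 4.93 TPM, against a median of 10.2 TPM over all genes of a library. Dlx2 reached 1 TPM in 5 libraries, and Dlx5 and Dlx6 in 4 each. Sp8 reached it in 1 library, and Gad2 and Lhx6 in 0. The vesicular transporter Slc32a1, which marks GABA-releasing neurons, was at or below 0.138 TPM in every library. No library therefore showed the whole set named by the label: the number of members at 1 TPM or more ran from 3 in each control differentiation library to 7 in the mA19d#7 differentiation library. Values below 0.1 TPM are read here as at the floor, since 27.6% of the genes in a library lay below 0.1 TPM and 0.957% between 0.1 and 0.3 TPM. In such bulk libraries, fewer cells of a type and less RNA per cell cannot be told apart.

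**Figure D1:**
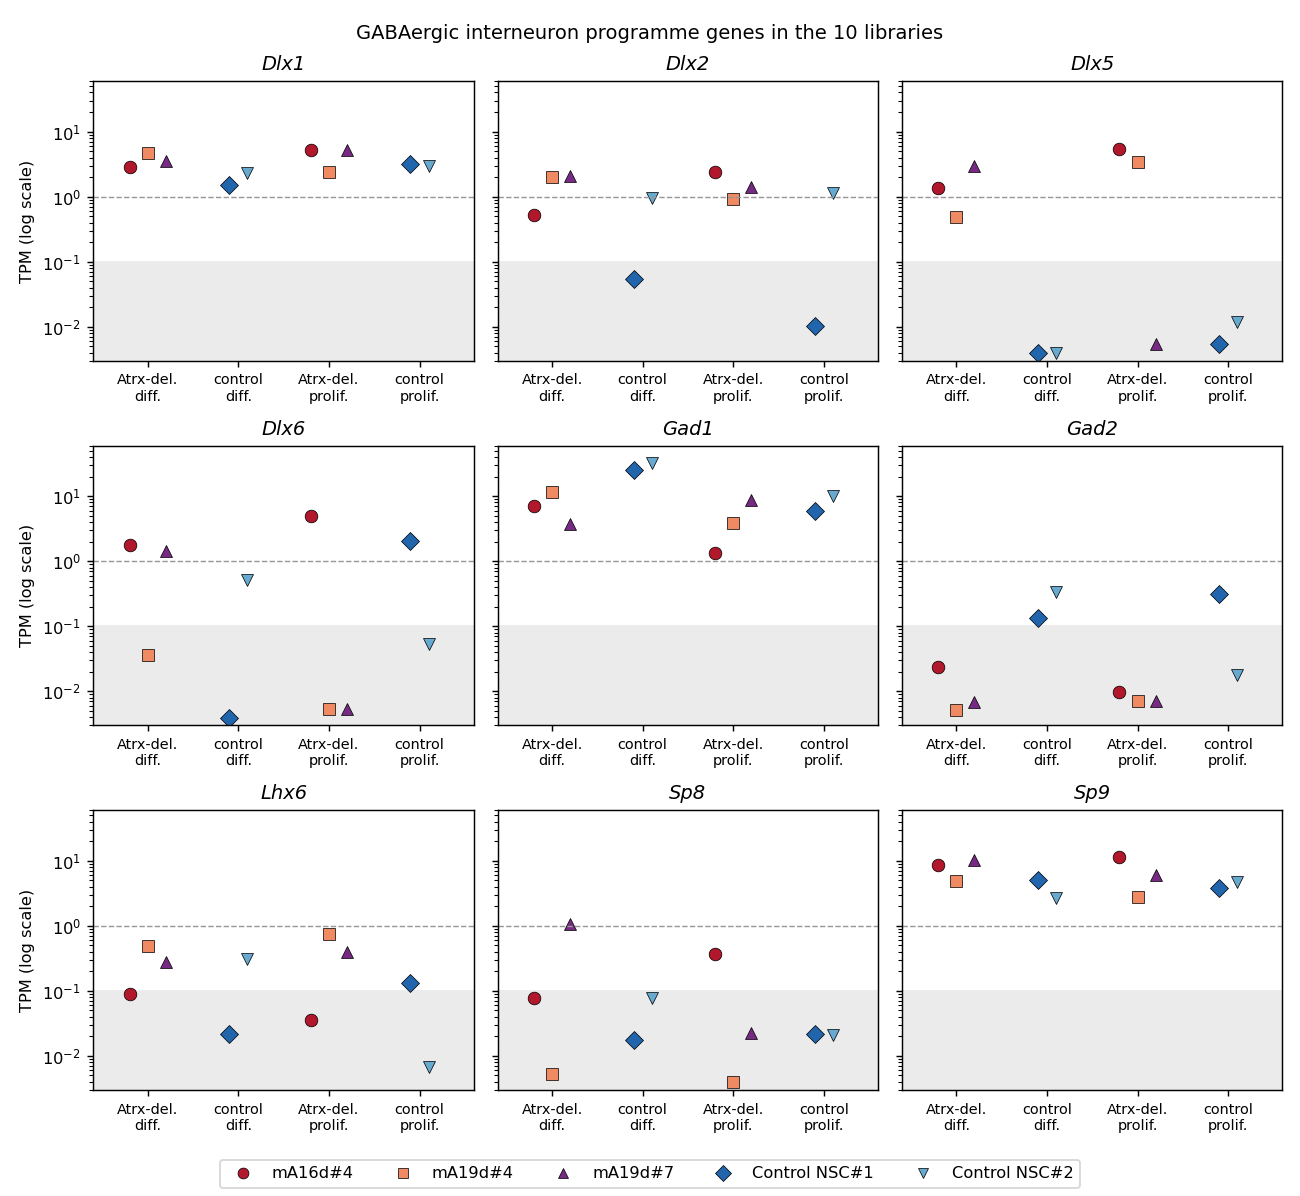
TPM (log scale) of the 9 members in each of the 10 libraries. Each point is 1 library, marked by its line. The dashed line is 1 TPM, and the grey band is the range below 0.1 TPM. Gad1 is highest in the 2 control differentiation libraries (25.2 and 31.8 TPM), and Dlx5 is in the grey band in all 4 control libraries.

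The 9 genes lie on 3 chromosomes of GRCm38, the assembly of mm10, with 6 on chromosome 2, 2 on chromosome 6 and 1 on chromosome 12. Dlx1 (chr2:71528113-71533981, + strand) and Dlx2 (chr2:71543408-71546754, - strand) end 9426 bases apart and face each other tail to tail, and Dlx6 (chr6:6863334-6868568, + strand) and Dlx5 (chr6:6877805-6882085, - strand) are likewise 9236 bases apart. Gad1 (chr2:70553072-70602014, + strand) lies 926098 bases before Dlx1, and Sp9 (chr2:73271925-73284706, + strand) 1725170 bases beyond Dlx2. Antisense genes overlap Dlx1 (Dlx1as), Dlx6 (Dlx6os1 and Dlx6os2) and Gad1 (Gad1os), and the protein-coding Cir1 on the other strand overlaps the end of Sp9. Because the strandedness of the counting is not given, reads of these pairs may not have been told apart.

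Promoter sequences were available from RefSeq (GRCm38.p6) for 7 of the 9 members, with no entry for Dlx5 and Dlx6. Of the tested members of chromosome 2, Gad1, Dlx2 and Sp9 are shown. Dlx1 is left out because its window begins in an annotated exon. Over the libraries Pearson's r of Gad1 was -0.568 with Dlx1, -0.572 with Sp9 and -0.428 with Dlx2, the weakest among the tested factors. The bases before each RefSeq start are given 5′ to 3′ on the gene's strand, up to the first base that GENCODE places in an exon of the gene. They span chr2:70561879-70562041 (+ strand) for Gad1, chr2:71546755-71547004 (- strand) for Dlx2 and chr2:73271676-73271924 (+ strand) for Sp9. Capitals mark matches to GGGCGG, the GC box that Sp factors bind, on either strand (CCGCCC on the other), and to CANNTG, the E box that basic helix-loop-helix factors bind.
Gad1: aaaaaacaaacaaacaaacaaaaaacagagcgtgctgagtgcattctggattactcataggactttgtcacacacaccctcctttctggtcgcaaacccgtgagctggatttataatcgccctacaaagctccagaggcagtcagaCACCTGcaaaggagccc
Dlx2: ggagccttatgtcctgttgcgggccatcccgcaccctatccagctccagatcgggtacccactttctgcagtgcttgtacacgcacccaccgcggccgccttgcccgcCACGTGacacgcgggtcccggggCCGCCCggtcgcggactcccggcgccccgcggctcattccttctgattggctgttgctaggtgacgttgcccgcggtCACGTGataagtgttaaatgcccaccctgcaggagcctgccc
Sp9: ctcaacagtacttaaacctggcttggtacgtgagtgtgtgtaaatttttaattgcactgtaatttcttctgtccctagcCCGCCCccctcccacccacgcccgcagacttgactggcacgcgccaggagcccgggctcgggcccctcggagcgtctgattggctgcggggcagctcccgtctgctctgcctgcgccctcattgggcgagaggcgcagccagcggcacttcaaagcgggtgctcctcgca
The Gad1 stretch holds 1 E box, the Dlx2 stretch 1 GC box and 2 E boxes, and the Sp9 stretch 1 GC box. A further GC box of Gad1, 8 to 3 bases before its RefSeq start, falls in the annotated exon and is not shown. Over 32851 promoter windows of 250 bases, 32.7% held a GC box and 66.2% an E box. TAATTA, the core that Dlx homeodomains bind, was searched as well and occurred in none of these 3 windows, against 4.84% of all windows. The Dlx1 window held none of the 3 motifs. A match describes the letters only.

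Gad1, the GABA-making enzyme of the set, had the lowest p of the tested members between the genotypes in differentiation medium. It had 7.11, 11.4 and 3.71 TPM in the Atrx-deleted differentiation libraries of mA16d#4, mA19d#4 and mA19d#7, against 25.2 and 31.8 TPM in the control differentiation libraries. All 3 Atrx-deleted libraries were below both control libraries. The means were 7.40 ± 3.85 TPM in Atrx-deleted and 28.5 ± 4.70 TPM in control libraries (SD, n = 3 and 2), a log2 difference of -1.91 with a 95% interval of -3.19 to -0.64 on the log2(TPM + 1) scale. The difference had an unadjusted p of 0.00738 but missed the threshold over all genes (adjusted p = 0.103, limma). With every Atrx-deleted library below both control libraries, leaving out libraries could not change the side, so the kept side in all 27 alternatives run adds no support. In the alternatives that kept both control differentiation libraries, the adjusted p ran from 0.0636 to 0.204 (limma). The log2 difference was -1.55 without the mA19d#7 differentiation library.

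In proliferation medium Gad1 had 1.36, 3.82 and 8.67 TPM in the Atrx-deleted libraries, against 5.98 and 9.90 TPM in the control libraries. The groups overlapped, as mA19d#7 lay between the control lines. The log2 difference was -0.87 with a 95% interval of -2.14 to 0.41 (adjusted p = 0.55, limma).

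Gad1 was higher in differentiation than in proliferation medium in 4 of the 5 lines. Its level in differentiation medium was 4.20 and 3.21 times that in proliferation medium in the control lines, 5.24 times in mA16d#4 and 2.98 times in mA19d#4, but 0.428 times in mA19d#7, whose differentiation library stood apart. In control lines the means were 28.5 ± 4.70 TPM in differentiation and 7.94 ± 2.77 TPM in proliferation medium (SD, n = 2 each), and the libraries did not overlap. The log2 difference of 1.75 (95% interval 0.35 to 3.14) had an unadjusted p of 0.0191 and missed the threshold (adjusted p = 0.148, limma). This call depended on the fit: the adjusted p was 0.034 with only the control libraries fitted and 0.0483 without both libraries of mA19d#7 (limma). The lowest, 0.015 (limma), came from a fit with each line as a block and mA19d#7 left out, chosen after the data were seen. Gad1 passed in 5 of the 29 alternatives. In Atrx-deleted lines Gad1 averaged 7.40 ± 3.85 TPM in differentiation and 4.62 ± 3.72 TPM in proliferation medium (n = 3 each), a log2 difference of 0.70 (adjusted p = 0.571, limma) that became 1.57 (adjusted p = 0.123, limma) without mA19d#7. With each line as a block and mA19d#7 left out, the same 1.57 had an adjusted p of 0.0493 (limma), within 0.0493 to 0.936 over the alternatives. That fit was chosen after the data were seen and drops the line in which Gad1 was lower in differentiation medium. Its passing is therefore no support for a rise. The difference between the responses of the 2 genotypes was -1.05 on the log2 scale (95% interval -2.85 to 0.76; adjusted p = 0.84, limma), and -0.17 without mA19d#7.

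**Figure D2:**
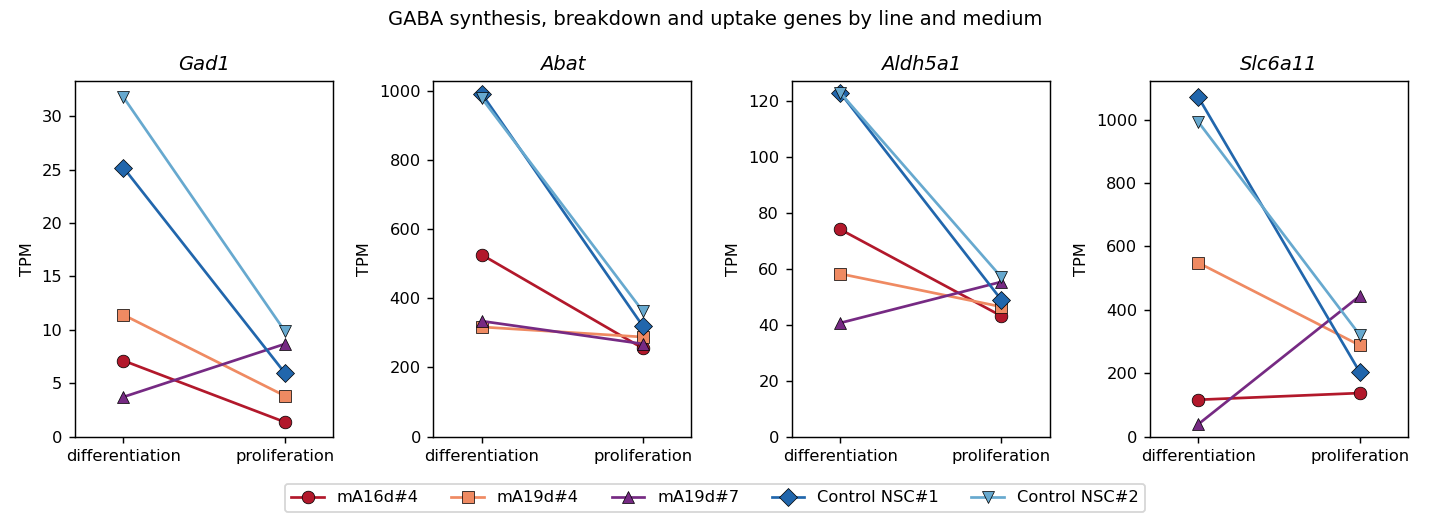
TPM of Gad1 and of 3 genes that break down or take up GABA, in differentiation medium (left) and proliferation medium (right). Each line joins the 2 libraries of 1 cell line. The control lines reach 979 and 992 TPM of Abat in differentiation medium, against 317 to 526 TPM in the Atrx-deleted lines. For Gad1, mA19d#7 is the line with the lower value in differentiation medium.

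Gad2, the other GABA-making enzyme, stood at 0.0233, 0.00522 and 0.00681 TPM in the Atrx-deleted differentiation libraries, against 0.132 and 0.339 TPM in the control ones. In proliferation medium it had 0.00984, 0.00722 and 0.00702 TPM in the Atrx-deleted libraries, against 0.311 and 0.0181 TPM in the control ones. All 6 Atrx-deleted libraries were at the floor and 3 of the 4 control libraries above it, but none reached 1 TPM, so Gad2 was not tested.

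Dlx1, a homeodomain factor of ventral progenitors, was the Dlx gene that reached 1 TPM in every library. It had 2.83, 4.64 and 3.55 TPM in the Atrx-deleted differentiation libraries, against 1.49 and 2.33 TPM in the control ones, and 5.23, 2.44 and 5.21 TPM in the Atrx-deleted proliferation libraries, against 3.16 and 2.92 TPM in the control ones. The genotypes did not overlap in differentiation medium and did in proliferation medium, where mA19d#4 was the lowest library. The log2 difference between Atrx-deleted and control lines was 0.68 (95% interval -0.17 to 1.53; adjusted p = 0.356, limma) in differentiation and 0.34 (adjusted p = 0.747, limma) in proliferation medium.

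Dlx2, which shares the chromosome 2 cluster with Dlx1, had 0.516, 2.04 and 2.07 TPM in the Atrx-deleted differentiation libraries, against 0.0552 and 0.953 TPM in the control ones. In proliferation medium it had 2.37, 0.909 and 1.39 TPM in the Atrx-deleted libraries, against 0.0104 and 1.16 TPM in the control ones. The groups overlapped in both media, and the low control values came from Control NSC#1 in each medium. Neither difference passed the threshold (adjusted p = 0.458 in differentiation and 0.577 in proliferation, limma).

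Dlx5, a later homeodomain factor of the same lineage, was at the floor in all 4 control libraries. It had 1.36, 0.483 and 2.97 TPM in the Atrx-deleted differentiation libraries, against 0.00391 TPM in both control ones. In proliferation medium it had 5.38, 3.43 and 0.00542 TPM in the Atrx-deleted libraries, against 0.00552 and 0.0120 TPM in the control ones. Of the 6 Atrx-deleted libraries, 5 held Dlx5 above the floor, the exception being mA19d#7 in proliferation medium. No fold is given against a group at the floor, and with this spread the difference missed the threshold in both media (adjusted p = 0.365 in differentiation and 0.369 in proliferation, limma).

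Dlx6, the partner of Dlx5 on chromosome 6, did not follow it in every line. It had 1.78, 0.0357 and 1.43 TPM in the Atrx-deleted differentiation libraries, against 0.00391 and 0.515 TPM in the control ones, and 5.04, 0.00534 and 0.00542 TPM in the Atrx-deleted proliferation libraries, against 2.05 and 0.0526 TPM in the control ones. The line mA19d#4 had Dlx5 but no Dlx6 above 0.1 TPM in either medium, and the groups overlapped (adjusted p = 0.713 in differentiation and 0.995 in proliferation, limma).

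Sp9, a zinc-finger factor, was the best-detected transcription factor of the set. It had 8.68, 4.89 and 10.4 TPM in the Atrx-deleted differentiation libraries, against 4.97 and 2.67 TPM in the control ones, and 11.6, 2.78 and 5.95 TPM in the Atrx-deleted proliferation libraries, against 3.74 and 4.65 TPM in the control ones. The groups overlapped in both media, as mA19d#4 lay between the control values in differentiation medium and below both in proliferation medium. The log2 difference was 0.89 (95% interval -0.24 to 2.01; adjusted p = 0.361, limma) in differentiation, or 0.69 (adjusted p = 0.486, limma) without the mA19d#7 differentiation library, and 0.42 (95% interval -0.71 to 1.54; adjusted p = 0.765, limma) in proliferation medium, and the difference in proliferation medium became -0.014 without the mA16d#4 proliferation library.

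Its relative Sp8 was above 0.1 TPM in 2 libraries, at 1.05 TPM in mA19d#7 in differentiation medium and 0.369 TPM in mA16d#4 in proliferation medium. Lhx6, the medial ganglionic eminence factor, ranged from 0.0878 to 0.480 TPM in the Atrx-deleted and 0.0217 to 0.307 TPM in the control differentiation libraries, and from 0.0362 to 0.743 TPM in the Atrx-deleted and 0.00666 to 0.133 TPM in the control proliferation libraries. Both were below the filter and were not tested.

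Between the media, the transcription factors showed no shared direction over the lines. Dlx1 was lower in differentiation than in proliferation medium in 4 of the 5 lines, the exception being mA19d#4, with log2 differences of -0.15 in Atrx-deleted lines (95% interval -0.91 to 0.62; adjusted p = 0.882, limma) and -0.49 in control lines (95% interval -1.42 to 0.45; adjusted p = 0.585, limma). Sp9 was higher in differentiation medium in 3 of the 5 lines, with log2 differences of 0.33 in Atrx-deleted lines (95% interval -0.68 to 1.33; adjusted p = 0.785, limma) and -0.15 in control lines (95% interval -1.38 to 1.09; adjusted p = 0.93, limma). Dlx5 was lower in differentiation medium in mA16d#4 and mA19d#4 and higher in mA19d#7. The adjusted p in Atrx-deleted lines was 0.979 for Dlx2, 0.85 for Dlx5 and 0.978 for Dlx6 (limma). The difference of the responses between genotypes had adjusted p of 0.941 for Dlx1 and 0.938 for Sp9 (limma), with 95% intervals of -0.87 to 1.55 and -1.12 to 2.06.

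Across the set, 0 of 6 tested members passed the threshold in any of the 5 comparisons run with limma. For Atrx-deleted against control lines, 2.89% of all tested genes passed in differentiation (1.55% higher and 1.33% lower) and 0.46% in proliferation medium. For differentiation against proliferation, 0.083% passed in Atrx-deleted and 4.51% in control lines (1.95% higher and 2.56% lower in differentiation), and for the difference of responses 0.00639%. A count of 0 among 6 is close to these background shares. At an unadjusted p below 0.05 the members numbered 1 of 6 (Gad1) in Atrx-deleted against control lines in differentiation, where 20.2% of all genes did, and 1 (Gad1) in differentiation against proliferation in control lines, where 19.9% did. The other 3 comparisons had 0, against 13.7% of genes for the genotypes in proliferation, 14.8% for the media in Atrx-deleted lines and 7.02% for the difference of responses.

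The median log2 difference of the 6 tested members between Atrx-deleted and control lines was 0.72 in differentiation, against 0.016 over all tested genes, and 0.38 in proliferation medium, against -0.018. In both media 5 differences were positive and that of Gad1 was negative, although in proliferation medium Dlx6 changed sign at a smaller pseudocount (4 positive at 0.5 and at 0.1). The libraries of the 2 genotypes did not overlap for 3 members in differentiation (Dlx1 and Dlx5 higher, Gad1 lower in Atrx-deleted lines), where 36.3% of all tested genes did not overlap, and for 0 in proliferation medium, where 38% did not. Between media, the median was 0.013 in Atrx-deleted and -0.094 in control lines, against 0.011 and -0.0084 over all genes. Members that did not overlap numbered 0 of 6 in Atrx-deleted lines (16.5% of all genes) and 3 of 6 in control lines (61.3% of all genes). Those 3 were Dlx1, Dlx5 and Gad1, and every control value of Dlx5 was at the floor. The medians depend on the scale, since Dlx2, Dlx5 and Dlx6 are at the floor in some libraries: with the deposited log2 values and no pseudocount they were 1.78 and 0.44 for the genotypes in differentiation and proliferation medium, and 0.66 and -0.45 for the media in Atrx-deleted and control lines. These medians cover only the members that passed the filter on low values, which some passed through the group in which they were high.

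**Figure D3:**
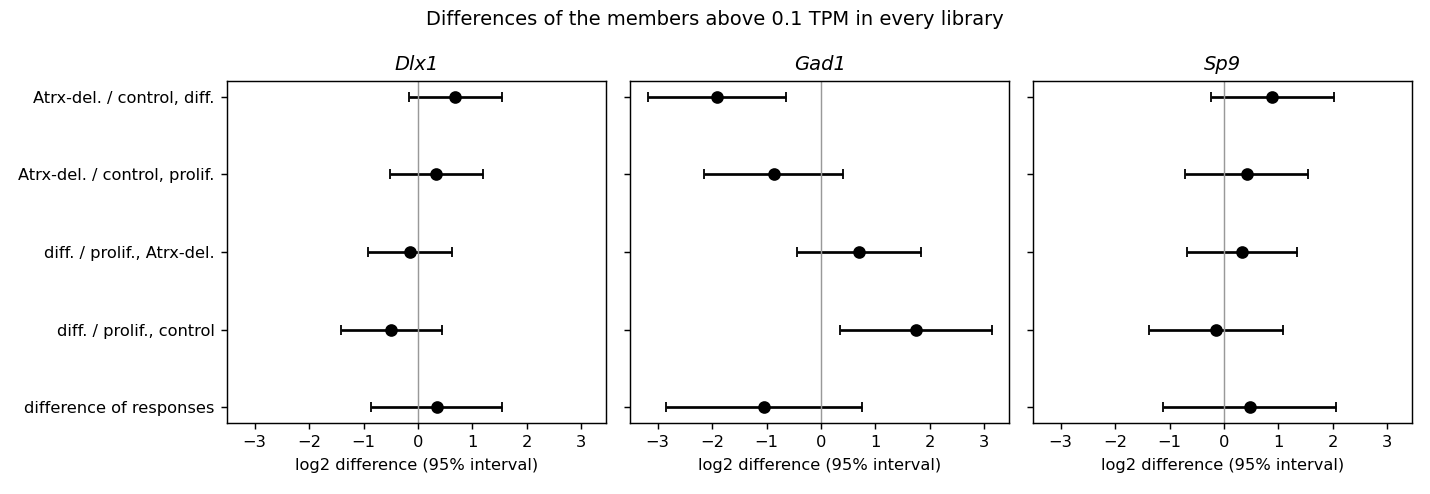
Log2 difference on the log2(TPM + 1) scale, with its 95% interval from limma, for the 3 members above 0.1 TPM in every library. The rows are the 5 comparisons, each with the first-named group on top of the ratio. For Dlx1 and Sp9 every interval spans 0, and for Gad1 the intervals of -3.19 to -0.64 and 0.35 to 3.14 do not.

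The levels of the transcription factors and of Gad1 were negatively correlated over the 10 libraries, but not every line showed it between the media. Dlx1, Dlx2, Dlx5, Dlx6 and Sp9 each had their highest value in the mA16d#4 proliferation library, where Gad1 had its lowest, 1.36 TPM. Over the 10 libraries Pearson's r of Gad1 with each of these 5 factors was between -0.812 (Dlx5) and -0.428 (Dlx2), whereas r was 0.718 between Dlx1 and Dlx2 and 0.538 between Dlx5 and Dlx6. Over the 9 libraries without that of mA19d#7 in differentiation medium, r with Gad1 was between -0.794 (Dlx5) and -0.364 (Dlx2). How far r rests on the mA16d#4 proliferation library, the extreme for all 5 factors and for Gad1, was not tested. In mA19d#4, levels in differentiation medium were above those in proliferation medium for Gad1 (2.98 times), Dlx1 (1.90 times), Dlx2 (2.25 times) and Sp9 (1.76 times), and below them for Dlx5 (0.141 times). The points share lines and media, so these are descriptions and carry no p-value. Sp9 exceeded Gad1 in 3 libraries, both of mA16d#4 and the differentiation library of mA19d#7, and Gad1 was the highest member in the other 7.

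The antisense and neighbouring genes were read beside the members. Dlx1as averaged 2.19 ± 1.27 TPM in Atrx-deleted and 1.00 ± 0.176 TPM in control differentiation libraries (SD, n = 3 and 2), the same order as Dlx1, and was not called (adjusted p = 0.465, limma). Dlx6os1 averaged 1.41 ± 1.24 TPM in Atrx-deleted and 0.484 ± 0.678 TPM in control differentiation libraries (adjusted p = 0.667, limma). Gad1os, which starts inside Gad1, averaged 5.07 ± 1.62 TPM in Atrx-deleted and 5.18 ± 1.74 TPM in control differentiation libraries (adjusted p = 0.984, limma), means that differ by less than the spread within either group. In control lines Gad1os had 6.41 and 3.95 TPM in differentiation and 14.5 and 13.5 TPM in proliferation medium, the reverse of Gad1 (adjusted p = 0.229, limma). Beyond Gad1, Gorasp2 averaged 136 TPM in Atrx-deleted and 131 TPM in control differentiation libraries, and Tlk1 54.8 and 58.8 TPM in the same order. Before Dlx1, Metap1d averaged 54.0 TPM in Atrx-deleted and 52.3 TPM in control differentiation libraries. Not all neighbours had such close means. Itga6, beyond Dlx2, averaged 143 TPM in Atrx-deleted and 88.4 TPM in control differentiation libraries, and Itgb8, beyond Sp8, 122 and 203 TPM in the same order. These are means without their spread, and no test of the neighbours is given here. Of the other Dlx genes, Dlx3 was at the floor in all 10 libraries and Dlx4 reached at most 2.83 TPM and was not called in any comparison.

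Among 8 tested genes of GABA breakdown, transport and related functions, a list that includes Gphn, Gabarap and Slc38a1, 2 fell and 0 rose in Atrx-deleted against control lines in differentiation medium. Over all tested genes 1.33% fell and 1.55% rose there. Abat, the transaminase that degrades GABA, had 526, 317 and 334 TPM in the Atrx-deleted libraries, against 992 and 979 TPM in the control libraries. Its log2 difference was -1.37 ± 0.22 (SE; adjusted p = 0.016, limma). Aldh5a1, which carries out the next step of GABA breakdown, had 74.1, 58.2 and 40.6 TPM in the Atrx-deleted libraries, against 123 TPM in both control libraries, a log2 difference of -1.12 ± 0.23 (SE; adjusted p = 0.0361, limma). For both genes every Atrx-deleted library was below both control libraries. The median of the 8 was -0.24, against 0.016 over all tested genes. With only the compared groups fitted, neither gene passed the threshold (adjusted p = 0.157 for Abat and 0.183 for Aldh5a1, limma). Aldh5a1 also missed it with no filter on low values (0.0736) and without the mean-variance trend (0.0645). The call of Abat was lost without control differentiation library 1 (adjusted p = 0.17) or 2 (0.11), within 0.00372 to 0.31 over its alternatives in limma. That of Aldh5a1 was lost without either control differentiation library (0.259 and 0.177), either control proliferation library (0.0648 and 0.0649), or the mA19d#4 library in either medium (0.0574 in differentiation and 0.0631 in proliferation), within 0.0168 to 0.421.

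Abat and Aldh5a1 rose in control lines in differentiation against proliferation medium. Abat averaged 985 ± 9.18 TPM in differentiation and 341 ± 30.5 TPM in proliferation medium (SD, n = 2 each; log2 difference 1.53, adjusted p = 0.00993, limma). Aldh5a1 had 123 TPM in both differentiation libraries and 48.9 and 57 TPM in the proliferation libraries (log2 difference 1.20, adjusted p = 0.0292, limma; adjusted p = 0.0685 with the line as a block). Leaving out any of the 4 control libraries ended both calls, with adjusted p of 0.0537 to 0.15 for Abat and 0.104 to 0.259 for Aldh5a1 (limma), and that of Aldh5a1 was also lost without the mA19d#4 proliferation library (0.0504). Over all alternatives the adjusted p ran from 0.000284 to 0.584 for Abat and from 0.000771 to 0.671 for Aldh5a1. Astrocyte markers moved in the same comparison, and their part in the values of Gad1, Abat and Aldh5a1 was not tested. Of 11 astrocyte genes 4 rose and 0 fell in control lines, where 1.95% of all tested genes rose and 2.56% fell. The summed levels of the 11 were 9880 to 10900 TPM in differentiation and 2220 to 3090 TPM in proliferation medium, with Apoe the largest part in differentiation medium. The median log2 difference of the 11 was 0.83, against -0.0084 over all tested genes. Not every gene went up: S100b, not called, had 210 and 175 TPM in differentiation and 285 and 339 TPM in proliferation medium. Among the 4 that rose were Apoe, with 5420 and 6640 TPM in differentiation and 359 and 753 TPM in proliferation medium (adjusted p = 0.0108, limma), and the glutamate transporter Slc1a2, with 421 and 372 TPM in differentiation and 40.7 and 65.7 TPM in proliferation medium (adjusted p = 0.015, limma). Both calls were lost without the Control NSC#1 proliferation library or either control differentiation library, and that of Slc1a2 also without Control NSC#2 in proliferation medium, with adjusted p up to 0.152 for Apoe and 0.185 for Slc1a2. Neither the response of Abat nor that of Aldh5a1 differed between the genotypes past the threshold (adjusted p = 0.495 for Abat and 0.566 for Aldh5a1, limma). Slc6a11, a GABA transporter of astrocytes, had 116, 548 and 39.1 TPM in the Atrx-deleted differentiation libraries, against 1070 and 992 TPM in the control ones, and missed the threshold (adjusted p = 0.0991, limma).

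The 19 tested genes of ventral forebrain patterning had a median of -0.097 in Atrx-deleted against control lines in differentiation medium, against 0.016 over all tested genes. Of the 19, 1 rose and 0 fell, where 1.55% of all tested genes rose and 1.33% fell. The gene that rose was Nr2f2 (COUP-TFII), a nuclear receptor of the caudal ganglionic eminence. It had 14.7, 16.1 and 17.1 TPM in the Atrx-deleted libraries, against 3.06 and 6.74 TPM in the control libraries. All Atrx-deleted libraries were above both control libraries (log2 difference 1.60, adjusted p = 0.043, limma), but leaving out any 1 of the 10 libraries ended the call, with adjusted p of 0.0519 to 0.345, within 0.0386 to 0.421 over all alternatives. In proliferation medium Nr2f2 averaged 18.2 ± 3.52 TPM in Atrx-deleted and 5.51 ± 2.51 TPM in control libraries (n = 3 and 2; log2 difference 1.60, adjusted p = 0.0921, limma). Gsx2, a factor upstream of the Dlx genes, reached at most 0.913 TPM, in 1 control library, and Nkx2-1, the medial eminence factor upstream of Lhx6, at most 0.487 TPM. No gene of the list was called in the other comparisons.

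Genes that mark interneuron subtypes or their maturation were called only between media in control lines, where 3 of 13 tested rose and 1 fell. Over all tested genes 1.95% rose and 2.56% fell there. Reln, the secreted protein reelin, averaged 71.9 ± 3.35 TPM in differentiation and 7.96 ± 2.34 TPM in proliferation medium (SD, n = 2 each; log2 difference 3.05, adjusted p = 0.0127, limma). Erbb4, a neuregulin receptor of interneurons, averaged 102 ± 2.74 TPM in differentiation and 30.7 ± 9.79 TPM in proliferation medium (1.73, adjusted p = 0.0166, limma), and Kcnc1, a fast potassium channel, 27.1 ± 5.14 TPM and 9.29 TPM in the same order (1.44, adjusted p = 0.0337, limma). Igf1, a growth factor, had 0.734 and 0.494 TPM in differentiation and 7.82 and 6.39 TPM in proliferation medium (-2.33, adjusted p = 0.0288, or 0.052 with the line as a block, limma). Its call depended on the scale, with adjusted p of 0.0579 and 0.197 at pseudocounts of 0.5 and 0.1 (limma). With no pseudocount it was 0.438, and with a filter of 5 TPM in 2 libraries 0.0781 (limma). The median of the 13 was 0.052, against -0.0084 over all genes. Genes not called went both ways in control lines. Htr3a had 10.7 and 10.8 TPM in differentiation and 39.1 and 47 TPM in proliferation medium, and Cort 0.00514 and 0.00391 TPM and 2.48 and 2.58 TPM in the same order. Cxcr4 was higher in differentiation medium, with 152 and 142 TPM against 45.8 and 57.4 TPM. The subtype genes Sst, Vip and Npy were at the floor in all 4 control libraries. Calls were lost on leaving out any of the 4 control libraries, with adjusted p of 0.0563 to 0.167 for Reln, 0.136 to 0.233 for Kcnc1 and 0.115 to 0.238 for Igf1; that of Erbb4 was lost without Control NSC#1 in proliferation (0.2) or either control differentiation library (0.125 and 0.112), and that of Kcnc1 also without mA19d#7 in proliferation (0.0536). Over all alternatives the adjusted p ran from 0.000362 to 0.584 for Reln, 0.000915 to 0.618 for Erbb4, 0.00196 to 0.596 for Kcnc1 and 0.00222 to 0.614 for Igf1. In Atrx-deleted lines Reln averaged 19.4 ± 9.77 TPM in differentiation and 3.92 ± 1.58 TPM in proliferation medium and Erbb4 45.0 ± 15.5 TPM and 15.1 ± 2.46 TPM in the same order, not called (adjusted p = 0.0997 for Reln and 0.0755 for Erbb4, limma). The responses of the genotypes did not differ past the threshold for these 4 genes (adjusted p = 0.5 to 0.941, limma).

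**Figure D4:**
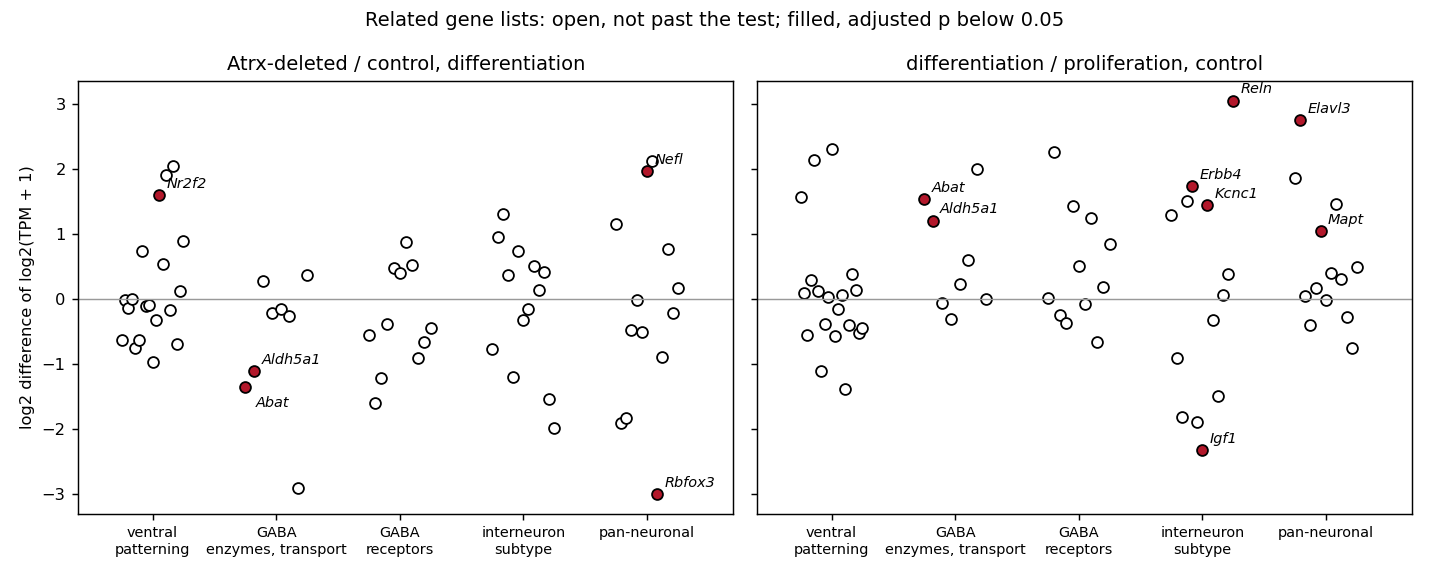
Log2 difference on the log2(TPM + 1) scale of each tested gene of 5 lists, for Atrx-deleted over control lines in differentiation medium (left) and for differentiation over proliferation medium in control lines (right). Each point is 1 gene, and filled points passed the threshold of 0.05 on the adjusted p. Abat and Aldh5a1 are below 0 on the left and above 0 on the right.

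None of 11 tested GABA receptor genes and none of 7 tested genes of glutamatergic neurons was called in any comparison. The receptor list had a median of -0.46 for Atrx-deleted against control lines in differentiation medium, against 0.016 over all tested genes. Of the vesicular glutamate transporters, Slc17a6 was at the floor in all 10 libraries. Slc17a7 had 0.00391, 0.00677 and 1.05 TPM in the Atrx-deleted and 1.76 and 0.00539 TPM in the control differentiation libraries, and 0.49, 1.18 and 0.795 TPM in the Atrx-deleted and 0.463 and 0.0825 TPM in the control proliferation libraries. Among 9 tested genes of striatal projection neurons, the other GABAergic product of the ventral forebrain, 1 fell (Ebf1) and 0 rose between media in control lines. Over all tested genes 2.56% fell and 1.95% rose there. Ebf1 averaged 2.96 ± 0.579 TPM in differentiation and 10.4 ± 1.27 TPM in proliferation medium (SD, n = 2 each, adjusted p = 0.029, limma). Its call was lost without any of the 4 control libraries or the mA19d#4 proliferation library, with adjusted p up to 0.2, and with the line as a block (adjusted p = 0.0652, limma).

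Markers of other states moved in the same comparisons, and their part in the values above was not tested. Over all tested genes 1.55% rose and 1.33% fell for the genotypes in differentiation medium. Between media in control lines 1.95% rose and 2.56% fell. Of 10 cell cycle genes, 8 rose and 0 fell in Atrx-deleted against control lines in differentiation medium, with summed levels of 537 to 1130 TPM in Atrx-deleted and 245 to 260 TPM in control libraries, and 8 fell in control lines in differentiation against proliferation medium. Of 13 tested pan-neuronal genes, Nefl rose and Rbfox3 fell in Atrx-deleted against control lines in differentiation medium. Nefl had 2.91, 2.60 and 3.28 TPM in the Atrx-deleted libraries, against 0.00631 and 0.00559 TPM in the control libraries (adjusted p = 0.046, limma), and Rbfox3 had 0.138, 1.95 and 0.0488 TPM in the Atrx-deleted libraries, against 9.88 and 12.7 TPM in the control libraries (adjusted p = 0.0303, limma). Between media in control lines 2 pan-neuronal genes rose (Elavl3 and Mapt). Summed pan-neuronal levels were 675 to 1420 TPM in Atrx-deleted and 1110 to 1130 TPM in control differentiation libraries. Of 11 tested oligodendrocyte-lineage genes 3 fell, among them Pdgfra and Bcas1, and of 11 astrocyte genes 1 fell (Apoe), in Atrx-deleted against control lines in differentiation medium. Their summed levels there were 2110 to 5300 TPM in Atrx-deleted and 4170 to 4540 TPM in control libraries for oligodendrocyte genes. For astrocyte genes they were 4150 to 8630 TPM in Atrx-deleted and 9880 to 10900 TPM in control libraries. Apoe alone gave 5420 and 6640 TPM of the control sums, against 1450, 977 and 955 TPM in the Atrx-deleted libraries. The median log2 difference of the 11 astrocyte genes was 0.16, against 0.016 over all tested genes, so the sums do not describe the list as a whole. Every call in this paragraph was lost without the Control NSC#1 differentiation library, and every one but those of Ube2c without that of Control NSC#2; the highest adjusted p of each gene over leaving out each library ran from 0.0932 to 0.345 (limma). Summed microglial and endothelial markers were at most 11.3 and 6.75 TPM in any library.

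By likeness of pattern over the 10 libraries, the genes with the highest Pearson r to Gad1 were Phyhipl (0.976), Fam3c (0.971) and Arnt2 (0.961). Those closest to Dlx1 were Mfsd2b (0.957), Kbtbd6 (0.927) and Kcng1 (0.919), and to Dlx2 Ube2v1 (0.927), Mnt (0.923) and Mocs3 (0.919). Dlx5 was most like Xlr3c (0.959), Lin28b (0.943) and Acd (0.929), and Dlx6 most like Cep126 (0.928), Atf7ip2 (0.901) and Asap3 (0.893). For Sp9, r was 0.949 with Aim1 and 0.922 with Nr1h3. No member was among the 3 genes most like another member.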

How the data were processed

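The authors deposited 1 table of log2 values for 21101 genes in 10 libraries. Per the submitters' processing notes, reads were aligned with STAR to mm10. Versions, strandedness, annotation and quantification tool, not given in the sources used here, could change the values. All columns hold the same sorted set of values, so the table was quantile-normalised before deposit. Back-transformed from log2, each library sums to 997524, so the deposited log2 values were read as log2 TPM, with a floor of -8 that 1213 genes reach in each library. Quantile normalisation hides any change in total RNA. Depth is unknown, so no counting error is given.

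Values were back-transformed, and the 15660 genes that reached 1 TPM in 2 or more libraries were fitted as log2(TPM + 1) with limma 3.58.1 (R 4.3.3), 4 group means, a mean-variance trend and 6 residual degrees of freedom. Tests are two-sided with Benjamini-Hochberg adjustment over 15660 genes and a threshold of 0.05. The 9 members are always named. Genes of other lists are named where they passed the threshold or define a cell type. Likeness is Pearson's r of log2(TPM + 1) over the 10 libraries. The code was tested on simulated data. The members, lists and alternatives were chosen with earlier results of these data known.

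Each line gave 1 library in each medium, so the labels pair the media within a line. The correlation of the deviations of a line's libraries from their group means, over tested genes, was 0.0624 for the control lines, 0.159 for mA16d#4, 0.404 for mA19d#4 and -0.194 for mA19d#7. A line block is an alternative, as are other pseudocounts, filters, spread models, scalings and leaving out each library or line. The design had assumed linear TPM. A few genes that the naming rule covers are not reported here.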

Additional observations from a re-analysis of the deposited data

How the results depend on the processing

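The count of members past the threshold stayed at 0 under every alternative run for both comparisons of Atrx-deleted with control lines and for the difference of responses. For differentiation against proliferation in control lines, the count was 1 (Gad1) with the compared groups fitted alone, with a weight per group, and in 2 alternatives chosen after seeing the data: a fixed replicate block without line mA19d#7, and a weight per group without the mA19d#7 differentiation library. It ranged from 0 to 1 on leaving out libraries or lines. For differentiation against proliferation in Atrx-deleted lines, the fixed replicate block gave 0 members over all lines. It gave 1 (Gad1) without line mA19d#7, a fit also chosen after seeing the data. In the paired fit with a fixed line block over all lines, Gad1 had log2 differences of 0.70 in Atrx-deleted lines (adjusted p = 0.575 from limma) and 1.75 in control lines (adjusted p = 0.186 from limma). The block changed no call of a member. Of the called genes of the GABA, interneuron and striatal lists, it ended the calls of Aldh5a1, Igf1 and Ebf1 (adjusted p = 0.0652 from limma) for control lines.

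Of 15 log2 differences of Dlx1, Gad1 and Sp9, 9 kept their sign in every alternative. The other 6, none called, changed sign on leaving out a library or line, and the cause was not tested. Where the libraries of the compared groups did not overlap, as for Gad1 and Dlx1 between genotypes in differentiation medium, leaving out libraries could not change the sign. For Dlx1 the range on leaving out was -0.57 to 0.13 for differentiation against proliferation in Atrx-deleted lines, with 0.0056 under the fixed replicate block without mA19d#7, and -0.087 to 0.62 for the difference of responses. For Sp9 it was -0.014 to 0.85 for Atrx-deleted against control lines in proliferation, -0.11 to 0.76 for differentiation against proliferation in Atrx-deleted lines, -0.62 to 0.33 for the same in control lines and -0.0067 to 0.95 for the difference of responses.

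Over all genes, the calls for Atrx-deleted against control lines in differentiation were 452, with 935 when the mA19d#7 differentiation library was left out, 11 and 30 without either control differentiation library, and 2 with the compared groups fitted alone. For proliferation the 72 calls ranged from 0 to 714 over the alternatives. In differentiation against proliferation the 13 calls in Atrx-deleted lines ranged from 0 to 348 and the 706 in control lines from 0 to 3050. The single call for the difference of responses ranged from 0 to 30. Leaving out a control library leaves that arm with 1 library, assumed to vary like the other groups. Without the filter all 9 members could be tested and 0 passed in any comparison, the lowest adjusted p being 0.204 (limma).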

Other observations

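Beyond the genes above, 2 forebrain patterning genes were picked after their values were seen. Six3, a homeobox gene of the ventral forebrain, had 26, 0.0234 and 68.3 TPM in the Atrx-deleted differentiation libraries of mA16d#4, mA19d#4 and mA19d#7, against 0.00391 and 8.07 TPM in the control differentiation libraries. In proliferation medium Six3 had 39.6, 0.858 and 2.47 TPM in the Atrx-deleted libraries, against 0.921 and 1.79 TPM in the control libraries. Its 3 highest libraries were both libraries of mA16d#4 and the differentiation library of mA19d#7, which are also the 3 libraries in which Sp9 exceeded Gad1; without the mA19d#7 differentiation library, both libraries of mA16d#4 are left. Neither comparison of Six3 passed the threshold (adjusted p = 0.551 in differentiation and 0.759 in proliferation, limma).

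Gsx1, a homeobox gene of ventral telencephalic progenitors, had 7.86, 9.91 and 12.4 TPM in the Atrx-deleted proliferation libraries, against 1.34 and 1.78 TPM in the control ones. In control lines it had 7.55 and 13.7 TPM in differentiation medium, against those 1.34 and 1.78 TPM in proliferation medium. The groups did not overlap in either comparison, and neither passed the threshold (adjusted p = 0.154 and 0.0855, limma). Such a lack of overlap was common, at 38% of all tested genes between genotypes in proliferation medium and 61.3% between media in control lines. In differentiation medium the genotypes overlapped, with 4.6, 15 and 2.25 TPM in the Atrx-deleted libraries, against those 7.55 and 13.7 TPM in the control ones (log2 difference -0.76, adjusted p = 0.492, limma).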
